A study of Glycine max with 20 samples.

Results

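The comparison described here set the minute hilum isoline UC413 against its recurrent parent UC7 at the earliest extended hilum stage, EH10, in seeds of 10 to 25 mg fresh weight. The hilum is the scar where the seed was joined to the pod, and the extended hilum is the hilum with a small ring of seed coat around it. UC7 is Clark 63 with the genotype i-i R T Mi g and a black hilum. UC413 has the genotype i-i R t mi G and a smaller hilum, and its mi, t and G alleles were brought into Clark 63 from another line by repeated backcrossing, so the isolines differ at all of these loci and at any donor DNA linked to them. Plants of both lines were grown in a greenhouse, and each line gave 2 EH10 RNA-Seq libraries, which are 4 of the 20 libraries of the series. The members of the comparison were 88324 soybean gene models, and 323 more were left out. These were the models between Glyma.13G011200 and Glyma.13G024300, where reads of ribosomal DNA (rDNA) align, and 191 models whose best Arabidopsis hit is a chloroplast or mitochondrial gene. With 1 model per gene, 31449 genes were tested. In whole dissected tissue, fewer cells of a type and less RNA per cell cannot be told apart.

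The seed coat is maternal tissue that feeds and protects the embryo, and the hilum is where the vascular supply of the pod enters it. Ethylene is made in 2 steps: ACC synthase makes the precursor ACC, and ACC oxidase (ACO) turns ACC into ethylene. Ethylene then binds receptors in the endoplasmic reticulum, which need copper and which keep the pathway off when no ethylene is bound. Gibberellin, auxin and cytokinin set the division and expansion of growing cells, whose walls are loosened by expansins and xyloglucan enzymes and stiffened by peroxidases and laccases.

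The UC7 libraries held 128.8 and 114.9 M alignments (M for 1e6) and the UC413 libraries 111.7 and 98.6 M. The left-out rDNA models took 44.4% and 24.6% of the alignments in UC7, against 1.03% and 0.386% in UC413, which left 71.5 and 86.6 M alignments outside the left-out models in UC7 and 110.5 and 98.2 M in UC413. Each library's RPKM values (reads scaled by model length and library total) were therefore divided by a median-of-ratios factor, and these values are called scaled RPKM below. Fold changes are on the log2 scale of scaled RPKM + 0.25, which understates the change of genes with low values, and a gene was called at an adjusted p under 0.05. On this scale, 1084 genes were higher in UC413 (3.45% of the genes tested) and 897 were higher in UC7 (2.85%). Of these, 578 and 409 differed by at least 1 on the log2 scale, that is, by a doubling or more. Without a test, both UC413 libraries lay above both UC7 libraries for 23.7% of the genes and below both for 35.1%. The median difference over all genes was -0.08 on scaled RPKM, 0.65 on the RPKM as deposited and 0.10 when each library was set to an equal sum over the kept models, so a difference below is relative to the middle of the genes. The called models split into 2276 on the UC413 side and 1205 on the UC7 side, which became 36668 and 193 on the RPKM as deposited and 5541 and 721 with equal sums.

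With 2 libraries on each side, single libraries weighed on the calls. When 1 EH10 library was left out, the remaining library was taken to have the spread of the other groups. The 1084 genes higher in UC413 fell to 296 still called without UC7 replicate 1, 624 without UC7 replicate 2, 218 without UC413 replicate 1 and 211 without UC413 replicate 2. The 897 genes higher in UC7 fell to 128, 357, 156 and 85 in the same order. All 4 of these fits called 165 and 61 genes, which are said below to hold throughout. List counts from these 4 fits are given in the order just used.

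The largest log2 difference among the genes higher in UC413 was in ethylene formation, where a pair of ACO genes was close to silent in UC7 and abundant in UC413. Glyma.09G008400 stood at 0.0275 and 0.0416 in UC7 and 148.7 and 119 in UC413. These values rested on 3 and 6 alignments in UC7 and 29564 and 21357 in UC413. The groups were far apart, with a log2 difference of 8.87 ± 0.40 (SE, adjusted p = 2.19e-05). Glyma.15G112700 stood at 0.0573 and 0.0289 in UC7 and 55.2 and 52.6 in UC413, with a log2 difference of 7.53 ± 0.45 (SE, adjusted p = 5.81e-05), and both genes held throughout. The related Glyma.02G268000 was at 0.602 and 0.519 in UC7 and 5.41 and 5.9 in UC413, and Glyma.14G049500 at 0.389 and 0.409 in UC7 and 2.52 and 2.61 in UC413. Both UC413 libraries lay above both UC7 libraries for this second pair, yet neither passed the test (adjusted p = 0.273 and adjusted p = 0.358), while a fit on the EH10 libraries alone gave adjusted p = 0.000724 and 0.00141. In the fit of all stages, the UC7 libraries at EH25 were at 92.0 and 0.836 for Glyma.02G268000, a spread between replicates that enters its error. The remaining tested ACO genes leaned the other way without passing: Glyma.07G264200 was at 23.2 and 17.3 in UC7 and 11.5 and 7.66 in UC413 (adjusted p = 0.0624) and Glyma.17G009800 at 5.56 and 4.39 in UC7 and 2.7 and 1.67 in UC413 (adjusted p = 0.0509, or 0.0465 with the EH10 libraries alone).

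The step before ACO and the steps after it moved less. Of 18 annotated ACC synthase genes, 2 passed the low-value filter and were tested, and both were lower in UC413. The study reported slight overexpression in UC413 at this stage for other ACC synthase genes, which did not pass its criteria. Glyma.08G018000 (ACS6) was at 19.3 and 12 in UC7 and 5.6 and 6.72 in UC413, with a log2 difference of -1.27 ± 0.31 (SE, adjusted p = 0.0417), and Glyma.05G211700 (ACS1) at 19.2 and 11.6 in UC7 and 4.64 and 6.15 in UC413, with a log2 difference of -1.44 ± 0.36 (SE, adjusted p = 0.0464). These calls depended on single libraries: the adjusted p was 0.244 without UC7 replicate 1, 0.193 without UC413 replicate 1 and 0.163 without UC413 replicate 2 for ACS6, and the adjusted p was 0.263 without UC7 replicate 1, 0.051 without UC7 replicate 2, 0.215 without UC413 replicate 1 and 0.159 without UC413 replicate 2 for ACS1. Of the ethylene perception and signalling genes, 8 of 51 tested were higher in UC413 and 0 lower, and 0, 4, 0 and 0 were called without single libraries. They included the receptors Glyma.10G188500 (ETR2, 0.71 ± 0.13), Glyma.20G202200 (ETR2, 0.79 ± 0.14) and Glyma.10G008500 (EIN4, 0.84 ± 0.19). RAN1 is the copper pump that loads the receptors, and its genes Glyma.08G087300 and Glyma.05G132900 differed by 0.80 ± 0.15 and 0.79 ± 0.16. The median difference of the signalling list was 0.20 (0.87 on the RPKM as deposited, 0.38 with equal sums). Its models were long, with a median of 3031 bases against 1665 over all genes. With a trend on model length removed, 8 were called higher and 1 lower, and the median difference was 0.08.

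**Figure D1:**
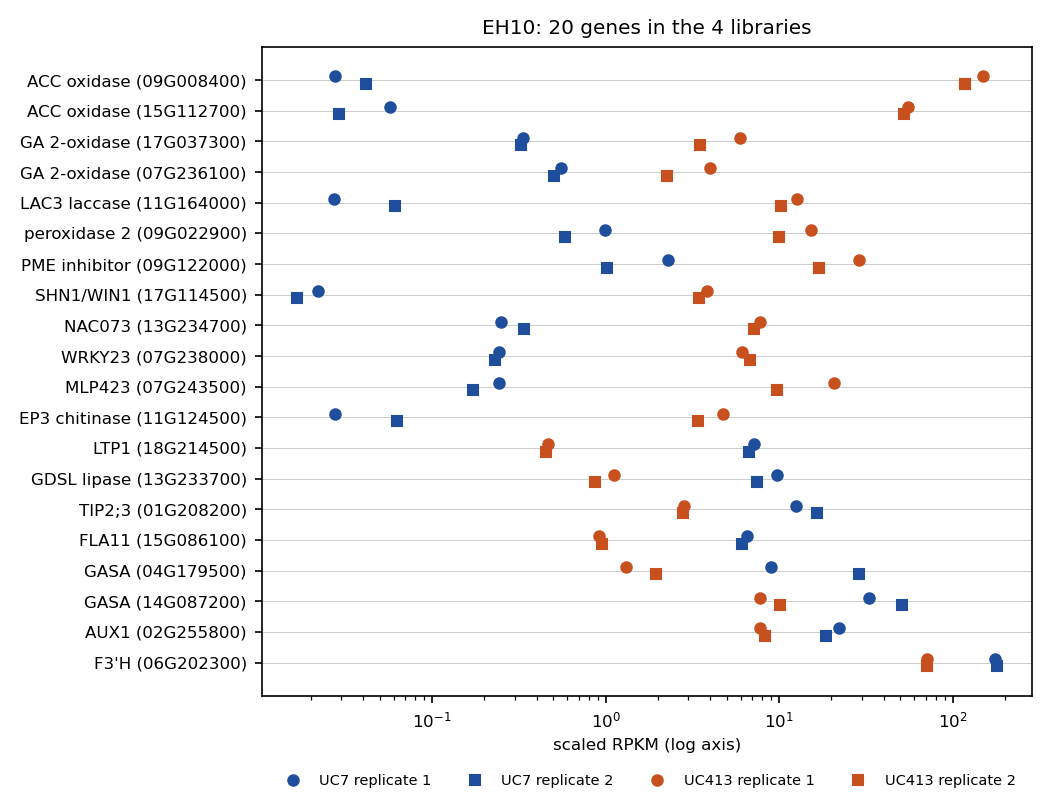
Scaled RPKM (log axis) of 20 genes in the 4 EH10 libraries, blue for UC7 and orange for UC413, circles for replicate 1 and squares for replicate 2. The 20 genes were chosen among called genes, none of which had overlapping UC7 and UC413 libraries, so the lack of overlap here follows from that choice. Over all genes tested, both UC413 libraries lay above both UC7 libraries for 23.7% and below both for 35.1%. The ACC oxidase Glyma.09G008400 runs from 0.0416 at most in UC7 to 119 at least in UC413.

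Gibberellin genes were called in both directions. Gibberellin 2-oxidases inactivate gibberellins, and 2 of 11 tested members were higher in UC413 and 1 was lower. Glyma.17G037300 was at 0.335 and 0.325 in UC7 and 5.92 and 3.5 in UC413, with a log2 difference of 3.05 ± 0.25 (SE, adjusted p = 0.000474). Glyma.07G236100 was at 0.555 and 0.503 in UC7 and 4.01 and 2.24 in UC413, with a log2 difference of 2.07 ± 0.26 (SE, adjusted p = 0.00205), and both held throughout. The abundant member Glyma.01G105200 was at 62.3 and 77.6 in UC7 and 65.2 and 86.4 in UC413 and did not pass (adjusted p = 0.832), nor did 7 others. The lower member, Glyma.13G259400, was at 28.6 and 26.3 in UC7 and 17.8 and 12.4 in UC413, with a log2 difference of -0.87 ± 0.20 (SE, adjusted p = 0.0344), and the adjusted p was 0.17 without UC7 replicate 1, 0.0694 without UC7 replicate 2 and 0.258 without UC413 replicate 2. Glyma.13G361700, a gibberellin 3-oxidase of the last step of synthesis, was lower in UC413, with a log2 difference of -1.16 ± 0.22, and the adjusted p was 0.125 without UC7 replicate 1, 0.0826 without UC413 replicate 1 and 0.16 without UC413 replicate 2.

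GASA peptides are small cysteine-rich proteins whose first members were found through their response to gibberellin. Of these, 2 of 28 tested were higher in UC413 and 9 lower. Their median difference was -1.18 (-0.41 on the RPKM as deposited, -1.0 with equal sums), and without single libraries 4, 5, 1 and 3 were called lower. Glyma.04G179500 was at 8.99 and 28.7 in UC7 and 1.32 and 1.95 in UC413, with a log2 difference of -3.14 ± 0.46 (SE, adjusted p = 0.00508). Its UC7 libraries differed from each other but both stayed far above UC413. Glyma.14G087200 was at 32.9 and 50.7 in UC7 and 7.79 and 10.1 in UC413, and the abundant Glyma.17G258100 at 376 and 318 in UC7 and 141.7 and 110.2 in UC413. Their log2 differences were -2.17 ± 0.32 and -1.47 ± 0.23. These calls were lost without single libraries, since the adjusted p was 0.0526 without UC413 replicate 1 for the first, the adjusted p was 0.0556 without UC413 replicate 1 for the second and the adjusted p was 0.0575 without UC7 replicate 1 and 0.0939 without UC413 replicate 2 for the third. The opposite was seen for Glyma.02G245600, at 0.0701 and 0.0265 in UC7 and 2.61 and 2.32 in UC413, and Glyma.14G215600, at 0.0341 and 0.0129 in UC7 and 1.25 and 1.09 in UC413. Both rose in UC413 and held throughout, with a log2 difference of 3.19 ± 0.26 (SE, adjusted p = 0.000467) and a log2 difference of 2.38 ± 0.28 (SE, adjusted p = 0.00157).

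Called auxin transport genes were mostly lower in UC413, and called auxin response factors were higher. Of the transport genes, 2 of 30 tested were higher in UC413 and 7 lower, with a median difference of -0.63 (0.09 on the RPKM as deposited, -0.47 with equal sums), and 2, 4, 1 and 2 were called lower without single libraries. Glyma.02G255800, an AUX1 type importer that carries auxin into cells, was at 22.1 and 18.5 in UC7 and 7.79 and 8.25 in UC413, with a log2 difference of -1.31 ± 0.14 (SE, adjusted p = 0.00119), and held throughout. Of the auxin response factors, transcription factors that bind auxin-responsive promoters, 5 of 51 tested were higher in UC413 and 0 lower, falling to 1 when a trend on model length was removed and to 1, 4, 1 and 1 without single libraries. Glyma.14G208500 (ARF8) was at 3.27 and 3.87 in UC7 and 8.83 and 8.94 in UC413, with a log2 difference of 1.26 ± 0.17 (SE, adjusted p = 0.00264), and held throughout. Among the Aux/IAA repressors, 0 of 44 tested were higher in UC413 and 3 lower, with a median difference of -0.18 (0.61 on the RPKM as deposited, 0.0 with equal sums) and 1, 1, 1 and 0 called lower without single libraries. Glyma.07G034200 (IAA19) was at 17.2 and 20.9 in UC7 and 8.4 and 5.7 in UC413, with a log2 difference of -1.42 ± 0.23 (SE, adjusted p = 0.00854), and the adjusted p was 0.0885 without UC413 replicate 2. No GH3 gene was called among 15 tested, and 0 were higher and 1 lower when p was left unadjusted at 0.05, while the voom fit called 0 higher and 0 lower and the fit on the EH10 libraries alone 0 higher and 1 lower. Of the SAUR genes, small auxin-induced genes, 1 of 30 tested was higher in UC413 and 6 lower, with 0 called higher without any single library and 0, 3, 1 and 0 lower. Their median difference was -0.14 (0.46 on the RPKM as deposited, -0.00095 with equal sums).

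Cytokinin oxidases, which break cytokinins down, were among the genes higher in UC413. Of the cytokinin synthesis and breakdown genes, 5 of 12 tested were higher in UC413 and 0 lower, with a median difference of 0.86 (1.45 on the RPKM as deposited, 1.01 with equal sums). Glyma.09G063900 (CKX3) was at 0.0918 and 0.412 in UC7 and 1.96 and 1.76 in UC413, with a log2 difference of 2.15 ± 0.31 (SE, adjusted p = 0.00411), and held throughout. Glyma.04G028900 (CKX5) was at 0.493 and 0.327 in UC7 and 1.53 and 1.82 in UC413, with a log2 difference of 1.55 ± 0.24 (SE, adjusted p = 0.00636), and the adjusted p was 0.0777 without UC413 replicate 2. Without single libraries 3, 4, 2 and 1 of the list were called higher. Of the jasmonate ZIM repressors, 5 of 16 tested were higher in UC413 and 0 lower, with a median difference of 0.12 (0.81 on the RPKM as deposited, 0.29 with equal sums), and 4, 1, 0 and 0 were called without single libraries. Glyma.05G235500 (JAZ3) was at 6.86 and 4.74 in UC7 and 11.3 and 11.3 in UC413 and differed by 0.95 ± 0.16, and the adjusted p was 0.0788 without UC413 replicate 1 and 0.0896 without UC413 replicate 2.

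Cell wall genes changed in both directions, by family. Laccases oxidize monolignols and flavonoids, and 3 LAC3 genes were nearly absent in UC7. Glyma.11G164000 was at 0.027 and 0.0613 in UC7 and 12.6 and 10.3 in UC413, Glyma.18G057200 at 0.0497 and 0.0658 in UC7 and 5.91 and 5.01 in UC413 and Glyma.14G198900 at 0.059 and 0.0396 in UC7 and 2.51 and 1.91 in UC413. Their log2 differences were 5.31 ± 0.17, 4.21 ± 0.19 and 3.03 ± 0.36, and all 3 held throughout, while 1 of the 21 tested laccases was lower. That gene, Glyma.11G236800 (LAC14), was at 8.51 and 8.84 in UC7 and 2.16 and 1.9 in UC413, with a log2 difference of -1.97 ± 0.36 (SE, adjusted p = 0.0137), and the adjusted p was 0.0908 without UC7 replicate 1, 0.053 without UC7 replicate 2, 0.0769 without UC413 replicate 1 and 0.111 without UC413 replicate 2. Of the class III peroxidases, which cross-link wall polymers, 10 of 56 tested were higher in UC413 and 4 lower. Glyma.09G022900 was at 0.998 and 0.586 in UC7 and 15.2 and 10.0 in UC413, with a log2 difference of 3.62 ± 0.33 (SE, adjusted p = 0.000617), and Glyma.15G129000 at 0.298 and 0.158 in UC7 and 3.43 and 2.52 in UC413. Both are annotated as peroxidase 2 and held throughout. Without single libraries 5, 6, 5 and 4 peroxidases were called higher and 1, 2, 1 and 0 lower.

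Some pectin and expansin genes were also higher in UC413, but the pectin families were not called in 1 direction. Of the pectate lyases, 5 of 15 tested were higher in UC413 and 2 lower, and of the polygalacturonases 1 of 39 and 0. Of the pectin methylesterases, 0 of 26 tested were higher and 1 lower, and of their inhibitors 2 of 32 and 3. The inhibitors had a median difference of -0.60 (-0.02 on the RPKM as deposited, -0.47 with equal sums). The pectin lyase-like genes Glyma.05G114000, at 0.0365 and 0.0276 in UC7 and 7.76 and 4.7 in UC413, and Glyma.19G053800, at 0.00786 and 0.0119 in UC7 and 4.78 and 3.2 in UC413, were near 0 in UC7 and differed by 4.48 ± 0.44 and 4.0 ± 0.45. A pectin methylesterase inhibitor, Glyma.09G122000, was at 2.29 and 1.02 in UC7 and 28.8 and 17 in UC413, with a log2 difference of 3.64 ± 0.34 (SE, adjusted p = 0.000673). Another, Glyma.09G072700, went the other way, at 29.7 and 27.3 in UC7 and 5.18 and 7.15 in UC413, with a log2 difference of -2.18 ± 0.21 (SE, adjusted p = 0.000715). Of the expansins, which loosen walls at low pH, 5 of 39 tested were higher in UC413 and 0 lower, and 4, 5, 3 and 5 were called without single libraries. Glyma.07G229000 (EXPA15) was at 2.93 and 2.98 in UC7 and 16.1 and 14 in UC413, with a log2 difference of 2.26 ± 0.15 (SE, adjusted p = 9.64e-05), and Glyma.13G336600 (EXPA4) at 2.11 and 1.7 in UC7 and 14.4 and 8.32 in UC413, with a log2 difference of 2.39 ± 0.23 (SE, adjusted p = 0.000754). The 6 genes named in this paragraph held throughout.

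Xyloglucan endotransglucosylases, which cut and rejoin the tethers between cellulose fibrils, were called in 1 direction. Of these, 0 of 40 tested were higher in UC413 and 8 lower, with a median difference of -0.63 (0.16 on the RPKM as deposited, -0.45 with equal sums), and 3, 3, 3 and 0 were called without single libraries. Glyma.11G253900 (XTH16) was at 43.6 and 55.6 in UC7 and 15.2 and 12.3 in UC413, with a log2 difference of -1.83 ± 0.26 (SE, adjusted p = 0.00396), and the adjusted p was 0.0532 without UC413 replicate 2. Of the fasciclin-like proteins of the cell surface, 0 of 30 tested were higher in UC413 and 4 lower. Glyma.15G086100 and Glyma.13G226000, both FLA11, were at 6.5 and 6.1 in UC7 and 0.92 and 0.949 in UC413 and at 3.17 and 3.04 in UC7 and 0.453 and 0.381 in UC413. They differed by -2.47 ± 0.24 and -2.33 ± 0.25 and held throughout. Of the beta-1,3-glucanases, which degrade callose, 2 of 54 tested were higher in UC413 and 8 lower, with 1, 1, 0 and 0 called lower without single libraries, and of the callose synthases, 6 of 20 tested were higher in UC413 and 0 lower, with 0, 7, 2 and 0. The callose synthase models had a median length of 6379.5 bases, and 4 were called higher and 1 lower once the trend on model length was removed.

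Surface lipid and phenylpropanoid genes were divided. Glyma.17G114500, a SHN1/WIN1 type factor, a class that turns on cuticle genes in Arabidopsis, was at 0.0219 and 0.0165 in UC7 and 3.83 and 3.46 in UC413, with a log2 difference of 3.85 ± 0.21 (SE, adjusted p = 4.53e-05). Glyma.02G001500 (KCS11), of the elongation of very long chain fatty acids, was at 0.0536 and 0.0203 in UC7 and 1.47 and 1.52 in UC413, with a log2 difference of 2.61 ± 0.25 (SE, adjusted p = 0.000715). Of the KCS genes, 1 of 11 tested was higher and 3 lower, with a median difference of -0.33 (0.36 on the RPKM as deposited, -0.16 with equal sums), and without single libraries 1, 1, 1 and 1 were called higher and 0, 0, 0 and 0 lower. GDSL lipases, several of which build cutin, were called in both directions, as 10 of 82 tested were higher in UC413 and 11 lower. Glyma.08G318400 was at 1.09 and 1.96 in UC7 and 8.45 and 8.17 in UC413 and Glyma.18G095100 at 0.603 and 0.996 in UC7 and 5.43 and 4.49 in UC413, and they were higher in UC413 by 2.32 ± 0.25 and 2.33 ± 0.25. Glyma.13G233700 was at 9.72 and 7.47 in UC7 and 1.12 and 0.871 in UC413 and Glyma.15G079300 at 3.39 and 2.41 in UC7 and 0.341 and 0.258 in UC413, and they were lower in UC413, with log2 differences of -2.83 ± 0.32 and -2.51 ± 0.27. Glyma.18G214500 (LTP1), a lipid transfer protein, was at 7.16 and 6.74 in UC7 and 0.467 and 0.453 in UC413, with a log2 difference of -3.34 ± 0.43 (SE, adjusted p = 0.00255). All 7 genes named so far in this paragraph held throughout. Without single libraries 7, 7, 3 and 6 GDSL lipases were called higher and 2, 5, 6 and 2 lower. Of the phenylpropanoid and monolignol genes, 8 of 47 tested were higher in UC413 and 3 lower, and 5, 2, 1 and 0 were called higher without single libraries. Glyma.14G005000 (OMT1) was at 3.77 and 3.74 in UC7 and 7.86 and 8.99 in UC413, with a log2 difference of 1.11 ± 0.16 (SE, adjusted p = 0.00396), and the adjusted p was 0.0568 without UC413 replicate 2.

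Flavonoid genes differed in both directions. Of the flavonoid and proanthocyanidin genes, 4 of 41 tested were higher in UC413 and 3 lower, with a median difference of -0.21 (0.56 on the RPKM as deposited, -0.03 with equal sums). Glyma.06G202300, the flavonoid 3'-hydroxylase gene of the T locus at which the isolines carry different alleles, was at 176.3 and 180.2 in UC7 and 71.2 and 71.5 in UC413, with a log2 difference of -1.32 ± 0.18 (SE, adjusted p = 0.00289). Glyma.08G066800 (UGT78D2), a flavonoid glucosyltransferase, was at 2.65 and 2.12 in UC7 and 0.37 and 0.414 in UC413, with a log2 difference of -2.03 ± 0.26 (SE, adjusted p = 0.00252), and both held throughout. The chalcone synthase genes Glyma.11G011500 and Glyma.01G228700 were higher in UC413, at 31 and 22.7 in UC7 and 67.2 and 68.6 in UC413 and at 43.5 and 37.8 in UC7 and 94.2 and 100.4 in UC413. Their differences were 1.35 ± 0.22 and 1.26 ± 0.23, but the adjusted p was 0.0667 without UC413 replicate 1 and 0.0822 without UC413 replicate 2 for the former and the adjusted p was 0.0721 without UC7 replicate 1, 0.0613 without UC7 replicate 2, 0.0863 without UC413 replicate 1 and 0.121 without UC413 replicate 2 for the latter. Not every abundant pathway gene passed. Glyma.08G062000 (BAN, anthocyanidin reductase) was at 414 and 327 in UC7 and 185.6 and 201 in UC413 (adjusted p = 0.122). Glyma.02G048400 (flavanone 3-hydroxylase) was at 1010 and 959 in UC7 and 779 and 707 in UC413 (adjusted p = 0.462). Without single libraries 2, 3, 0 and 0 of the list were called higher and 2, 3, 2 and 2 lower. The chalcone synthase genes are near-identical copies, so reads may be shared among them.

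**Figure D2:**
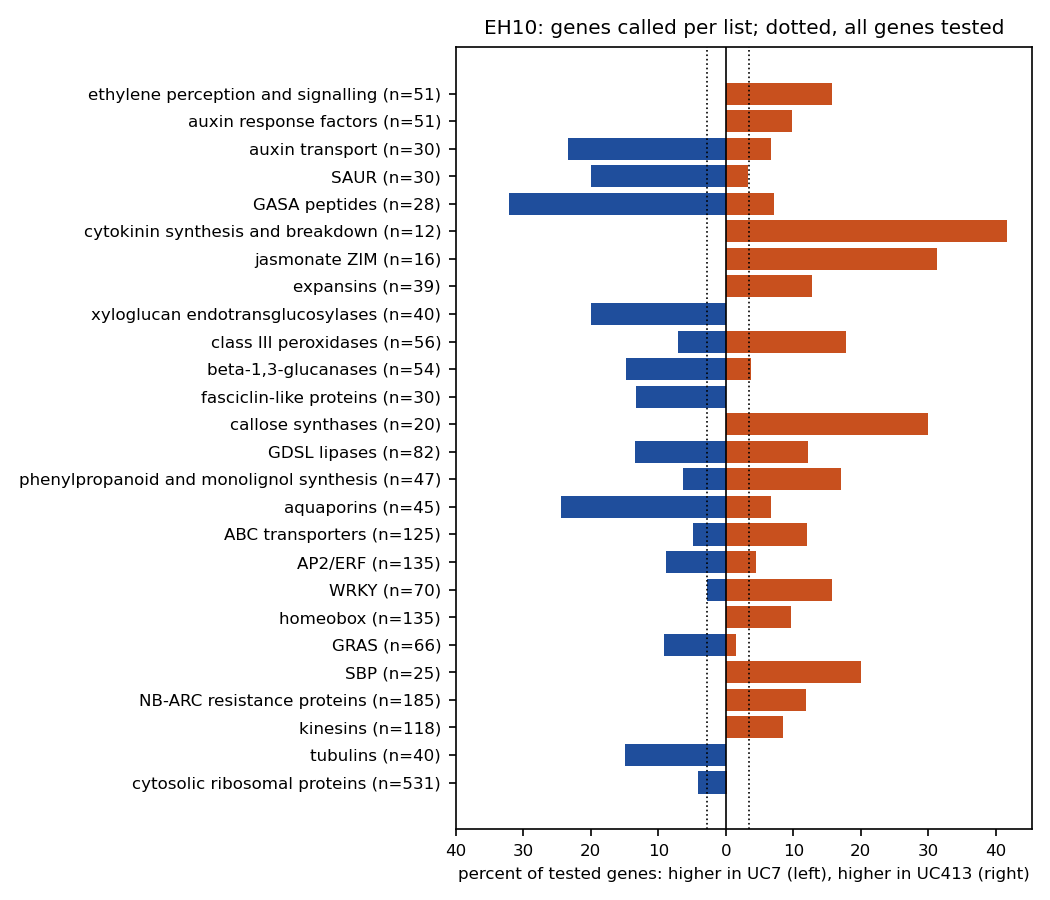
Percent of the tested genes of 26 lists that were called higher in UC413 (orange, right) or higher in UC7 (blue, left) at EH10, with the number tested in brackets. Dotted lines mark the shares over all genes tested, 3.45% and 2.85%, and cytokinin synthesis and breakdown genes reach 41.7% on the right while GASA peptides reach 32.1% on the left.

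Among transcription factors, WRKY genes were called more often on the UC413 side. Of these, 11 of 70 tested were higher in UC413 and 2 lower, with 7, 8, 5 and 5 called higher without single libraries. Glyma.07G238000 (WRKY23) was at 0.243 and 0.23 in UC7 and 6.1 and 6.75 in UC413, with a log2 difference of 3.78 ± 0.20 (SE, adjusted p = 4.53e-05). Glyma.17G035400 (WRKY23) was at 0.296 and 0.218 in UC7 and 5.79 and 5.4 in UC413 and Glyma.02G010900 (WRKY23) at 1.5 and 1.12 in UC7 and 10.3 and 11 in UC413. They differed by 3.53 ± 0.20 and 2.82 ± 0.31. Glyma.13G234700 (NAC073, also named SND2, linked to secondary walls in Arabidopsis) was at 0.25 and 0.339 in UC7 and 7.79 and 7.21 in UC413, with a log2 difference of 3.83 ± 0.23 (SE, adjusted p = 5.81e-05), and its copy Glyma.15G078300 was at 0.293 and 0.311 in UC7 and 3.03 and 4.16 in UC413. Glyma.02G244600 (MYB20) was at 4.87 and 4.84 in UC7 and 16.1 and 14.7 in UC413, with a log2 difference of 1.62 ± 0.19 (SE, adjusted p = 0.00162). Factors of the AP2/ERF family, some of which respond to ethylene, went both ways, as 6 of the tested genes were higher in UC413 (4.44%) and 12 lower (8.89%), with 3, 13, 4 and 3 called lower without single libraries. Glyma.09G072000 was at 13 and 11.6 in UC7 and 2.84 and 2.94 in UC413, with a log2 difference of -2.0 ± 0.14 (SE, adjusted p = 0.000162), and Glyma.15G180000 at 16.3 and 9.24 in UC7 and 2.01 and 2.75 in UC413. Each gene named in this paragraph held throughout.

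Other factor families were less even. Of the homeobox genes tested, 13 were higher in UC413 (9.63%) and 0 lower, but 2, 10, 1 and 3 were called higher without single libraries. Glyma.04G016700 (WOX13) was at 0.51 and 0.50 in UC7 and 2.15 and 1.86 in UC413, with a log2 difference of 1.57 ± 0.23 (SE, adjusted p = 0.00525), and the adjusted p was 0.0625 without UC413 replicate 1. Of the SBP genes, 5 of 25 tested were higher in UC413 and 0 lower, and 2, 5, 1 and 1 were called without single libraries. Glyma.11G251500 (SPL2) was at 1.74 and 1.97 in UC7 and 3.96 and 3.53 in UC413 and differed by 0.93 ± 0.14, and the adjusted p was 0.061 without UC413 replicate 1. Of the GRAS genes, which include the gibberellin repressors DELLA, 1 of 66 tested was higher in UC413 and 6 lower, with a median difference of -0.30 (0.46 on the RPKM as deposited, -0.12 with equal sums). Without single libraries 1, 5, 1 and 0 GRAS genes were called lower. Glyma.12G171600 and Glyma.13G327600, both NAC025, were lower in UC413 at 5.42 and 4.6 in UC7 and 2.02 and 1.42 in UC413 and at 7.6 and 9.78 in UC7 and 2.39 and 1.49 in UC413. They held throughout, with differences of -1.43 ± 0.20 and -2.05 ± 0.26.

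Called water channels were mostly lower in UC413. Of the aquaporins, 3 of 45 tested were higher in UC413 and 11 lower, with a median difference of -0.41 (0.29 on the RPKM as deposited, -0.22 with equal sums). Lower calls fell to 1, 2, 1 and 1 without single libraries, and to 5 once the trend on model length was removed. Glyma.01G208200 (TIP2;3, of the vacuole membrane) was at 12.5 and 16.6 in UC7 and 2.81 and 2.79 in UC413, with a log2 difference of -2.27 ± 0.28 (SE, adjusted p = 0.00205). Glyma.13G224900 and Glyma.15G087300, both NIP1;2, went the other way, at 0.66 and 0.625 in UC7 and 8.34 and 6.0 in UC413 and at 0.321 and 0.286 in UC7 and 2.63 and 1.89 in UC413. They differed by 3.04 ± 0.19 and 2.17 ± 0.24, and these 3 genes held throughout. Of the invertases and sucrose enzymes, which split or make sucrose, 1 of 23 tested was higher in UC413 and 6 lower, with 2, 1, 2 and 0 called lower without single libraries. Glyma.20G028600 (cell wall invertase 2) was at 2.11 and 2.33 in UC7 and 0.906 and 0.669 in UC413, with a log2 difference of -1.26 ± 0.19 (SE, adjusted p = 0.00649), and the adjusted p was 0.0802 without UC413 replicate 2. Of the ABC transporters, 15 of 125 tested were higher in UC413 and 6 lower, and 0, 9, 0 and 0 were called higher without single libraries. Their median length was 3684 bases, and 7 were higher and 7 lower with the length trend removed.

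Defence-type families were called in both directions. Of the Bet v 1 proteins, 4 of 21 tested were higher in UC413 and 2 lower, and of the chitinases 3 of 13 and 1. Of the calmodulin-like proteins, 7 of 105 tested were higher (6.67%) and 3 lower (2.86%), and of the cytochrome P450s 8.15% and 8.89%. Over all genes the shares were 3.45% and 2.85%, so the lower share of the calmodulin-like proteins was near that of all genes. Without single libraries, higher calls were 3, 2, 2 and 2 for Bet v 1 proteins, 3, 3, 2 and 3 for chitinases, 5, 5, 5 and 2 for calmodulin-like proteins and 5, 6, 3 and 4 for cytochrome P450s. Lower calls were 1, 2, 1 and 1, then 0, 0, 0 and 0, then 0, 7, 0 and 0, and then 2, 5, 6 and 1. Several of the higher genes were near 0 in UC7. Glyma.07G243500 (MLP423, a Bet v 1 type protein) was at 0.242 and 0.171 in UC7 and 20.7 and 9.75 in UC413, with a log2 difference of 4.99 ± 0.54 (SE, adjusted p = 0.00111). Chitinases degrade fungal walls, and Glyma.16G173000 (chitinase A) was at 0.556 and 0.286 in UC7 and 18.9 and 17.9 in UC413, with a log2 difference of 4.83 ± 0.65 (SE, adjusted p = 0.00312), while Glyma.11G124500 (EP3 type) was at 0.0275 and 0.0625 in UC7 and 4.76 and 3.43 in UC413, with a log2 difference of 3.87 ± 0.43 (SE, adjusted p = 0.00119). Glyma.12G067000 (CYP93D1) had no alignment in either UC7 library and 4.8 and 2.64 scaled RPKM in UC413, which is at least 405-fold higher when UC7 is set at a floor of 3 alignments over the group. The calmodulin genes Glyma.20G224300 and Glyma.10G161900 (CAM8), sensors of calcium, were at 0.179 and 0.0846 in UC7 and 2.64 and 2.02 in UC413 and at 0.202 and 0.139 in UC7 and 1.79 and 1.49 in UC413. The genes named so far in this paragraph held throughout. Of the NB-ARC resistance proteins, intracellular sensors of pathogens, 22 of 185 tested were higher in UC413 and 0 lower, but 3, 16, 3 and 2 were called without single libraries. Their median length was 3582 bases, and with the length trend removed 19 were higher and 6 lower.

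Among the few called genes of the growth machinery, ribosomal proteins and tubulins were mostly lower in UC413 and kinesins higher. Of the cytosolic ribosomal protein genes, 1 of 531 tested was higher in UC413 and 22 lower. The share called lower, 4.14%, was near the 2.85% over all genes. Their median difference was -0.41 (0.38 on the RPKM as deposited, -0.23 with equal sums). Of the tubulins, 0 of 40 tested were higher in UC413 and 6 lower, with a median difference of -0.39 (0.39 on the RPKM as deposited, -0.21 with equal sums). Lower calls of ribosomal proteins were 5 with equal sums, 7 with quantile normalization, 6 on the EH10 libraries alone and 55 with a replicate block. Those of tubulins were 3, 0, 1 and 14 in the same order. The ribosomal protein models had a median length of 994 bases, the tubulins 1876.5 and the kinesins 3339.5. Of the kinesins, motor proteins that move along microtubules, 10 of 118 tested were higher in UC413 and 0 lower. The lower calls were 2, 7, 1 and 1 for ribosomal proteins and 0, 3, 0 and 0 for tubulins without single libraries, and the higher calls 2, 5, 2 and 2 for kinesins. Glyma.13G286400 (kinesin 3) was at 14.9 and 16.1 in UC7 and 34.2 and 33.4 in UC413, with a log2 difference of 1.11 ± 0.12 (SE, adjusted p = 0.00126), and held throughout. Model length moved with the difference over all genes. Among the genes with the shortest models, 111 to 1138 bases, the median difference was -0.21, with 236 genes higher and 287 lower in UC413. Among those with the longest, 2327 to 16968 bases, it was 0.07, with 362 and 116. With the length trend removed, the lower ribosomal protein calls went from 22 to 10, those of tubulins from 6 to 5, and the higher kinesin calls from 10 to 5.

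**Figure D3:**
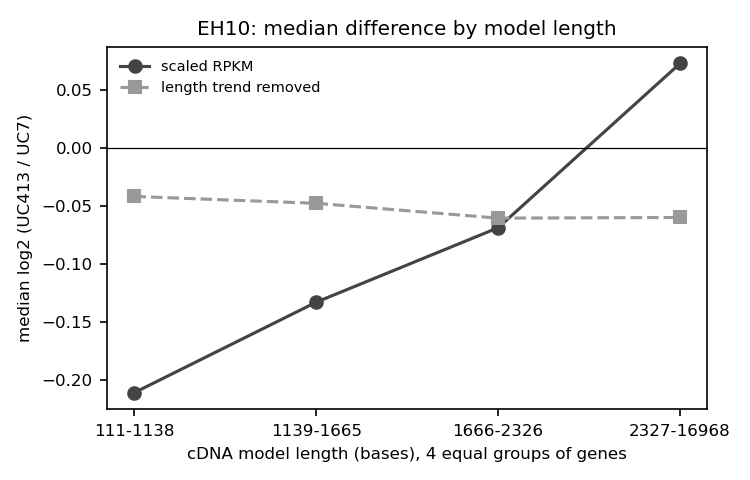
Median log2 difference (UC413 over UC7) at EH10 in 4 equal groups of the tested genes by cDNA model length in bases, on scaled RPKM (circles) and after the trend on length was removed (squares). The medians run from -0.21 in the shortest group to 0.07 in the longest on scaled RPKM, and from -0.04 to -0.06 after removal.

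The lowest genes in UC413 were of another kind. Of the 15 called genes with the lowest log2 differences, 12 carry no annotation, and 13 had more than 2 times the value in UC7 replicate 1 that they had in UC7 replicate 2. Among them, Glyma.U005800 was at 16551 and 5956 in UC7 and 173.7 and 70.0 in UC413, Glyma.05G081200 at 5785 and 1868 in UC7 and 64.7 and 22 in UC413, and Glyma.16G174500, annotated as receptor like protein 2, at 1698 and 512 in UC7 and 17 and 5.2 in UC413. The ratio of replicate 1 to replicate 2 had a median of 3.10 over the 15 genes and was 2.61 for the sum of the left-out rDNA models. Over all genes tested, 690 of 31449 exceeded a ratio of 2. These genes thus varied between the UC7 libraries in the direction of the rDNA share, and whether reads of rDNA reach them was not tested. Another of the 15, Glyma.04G145900, annotated as a mitochondrial ATPase subunit, was at 4.15 and 3.92 in UC7 and 0 and 0 in UC413. It is at least 130.6-fold higher in UC7 when UC413 is set at a floor of 3 alignments over the group, and the gene was under the low-value filter without UC7 replicate 1 and UC7 replicate 2.

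Genes tied to seed size in other work were tested as well. Glyma.05G019200 (CYP78A10, of a cytochrome P450 family that promotes organ growth) was higher in UC413, at 0.891 and 1.3 in UC7 and 4.53 and 3.84 in UC413, with a log2 difference of 1.73 ± 0.19 (SE, adjusted p = 0.00114), and held throughout. Its relative Glyma.16G021200 (CYP78A6) was lower, at 8.79 and 6.31 in UC7 and 1.67 and 1.39 in UC413, with a log2 difference of -2.12 ± 0.38 (SE, adjusted p = 0.014), and the adjusted p was 0.112 without UC7 replicate 1, 0.0742 without UC413 replicate 1 and 0.115 without UC413 replicate 2. The TIFY genes Glyma.10G244400 and Glyma.20G150000, which limit organ size in soybean, were at 2.53 and 4.1 in UC7 and 2.82 and 3.28 in UC413 and at 3.15 and 4.94 in UC7 and 2.98 and 3.63 in UC413 (adjusted p = 0.833 and adjusted p = 0.444), with overlapping groups.

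Markers of cell types were set beside these results. Ovule and seed coat identity genes (22 of 27 tested) summed to between 1387 and 1647 scaled RPKM in the 4 libraries, with both UC413 sums below both UC7 sums. Of these, 2 were called higher in UC413 and 2 lower, falling to 1, 1, 0 and 0 higher and 0, 0, 0 and 0 lower without single libraries. The median difference of the list was 0.19 (0.90 on the RPKM as deposited, 0.38 with equal sums). Both UC413 libraries lay above both UC7 libraries for 11 of the 22 genes and below both for 7. Over all genes tested, these shares were 23.7% and 35.1%. The sums include the abundant flavonoid gene BAN, given above. Glyma.14G019400 (SHP2, of carpel and seed coat identity) was at 11.9 and 11.3 in UC7 and 19.4 and 17.9 in UC413. The lower members, Glyma.15G088600 and Glyma.13G223300, are both annotated as AG, of carpel and ovule identity, and differed by -0.72 ± 0.15 and -0.52 ± 0.13 (0.076 and 0.28 on the RPKM as deposited). Embryo and cotyledon markers (8 of 17 tested) summed to 3.10 to 5.32, and the 1 endosperm marker that passed the filter of 61 lay between 2.25 and 4.66 and was called lower in UC413. Xylem markers (33 of 73 tested) summed to 132.6 and 153.7 in UC7 and 234 and 216 in UC413, with 4 called higher and 2, the FLA11 genes above, lower. Their median difference was 0.07 (0.66 on the RPKM as deposited, 0.22 with equal sums), and without single libraries 0, 3, 0 and 0 were called higher and 2, 2, 2 and 2 lower. Of the higher ones, the secondary wall cellulose synthases Glyma.06G225500 and Glyma.04G153700 (CESA7) were at 13.9 and 18.2 in UC7 and 38.5 and 38.4 in UC413 and at 10.1 and 13.8 in UC7 and 28.6 and 26.4 in UC413. They differed by 1.26 ± 0.22 and 1.20 ± 0.23, and the adjusted p was 0.0982 without UC7 replicate 1, 0.0837 without UC413 replicate 1 and 0.0922 without UC413 replicate 2 for the former and the adjusted p was 0.123 without UC7 replicate 1, 0.113 without UC413 replicate 1 and 0.1 without UC413 replicate 2 for the latter. Phloem markers (24 of 47 tested) summed to 96.9 and 73.0 in UC7 and 61.7 and 58.7 in UC413, with 2 called higher and 0 lower, and 1, 0, 0 and 0 called higher without single libraries. Epidermis markers (6 of 19 tested) summed to 58.8 and 55.2 in UC7 and 47.9 and 38.2 in UC413, with 0 called in either direction, but 1 was higher and 3 lower when p was left unadjusted at 0.05, and the voom fit called 1 and 0. The xylem sum, which the CESA7 genes are part of, moved with the laccase and NAC073 results, and its part in them was not tested.

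The sign of most of these differences was the same at the later stages, for which the 8 other extended hilum libraries were used, while fewer were called again. At EH25 (seeds of 25 to 50 mg), the UC413 side held 1.41% of the genes and the UC7 side 0.715%, and at EH50, the stage after it, they held 3.46% and 4.5%. Of the 1084 genes higher in UC413 at EH10, 404 were also called higher at EH25 and 567 at EH50, and 307 at both. Of the 897 higher in UC7, 187 were called again at EH25, 450 at EH50 and 144 at both. The sign of the difference was the same at EH25 for 1081 of 1084 and 890 of 897 genes, or 99.7% and 99.2%. Of all genes tested, whatever their sign at EH10, 41.8% had a difference above 0 at EH25 and 58.2% below. At EH10 and the stages after it, the genes higher in UC413 at EH10 had median differences of 1.06, 0.80 and 0.73. Those higher in UC7 had medians of -0.95, -0.65 and -0.71. In the single whole seed coat library of each isoline at the youngest stage (WS10), 98.2% of the former and 97.8% of the latter had the same sign. There, 40.8% of all genes tested had a difference above 0 and 59.2% below, whatever their sign at EH10. These values come from 1 library per isoline and have no test.

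The differences of some genes were smaller in value at later stages. Glyma.13G224900 (NIP1;2) differed by 3.04 ± 0.19 at EH10, 1.84 ± 0.19 at EH25 and 0.43 ± 0.19 at EH50. For Glyma.17G037300 (gibberellin 2-oxidase) the values were 3.05 ± 0.25, 2.80 ± 0.25 and 0.90 ± 0.25, and for Glyma.15G086100 (FLA11) -2.47 ± 0.24, -2.21 ± 0.24 and -0.63 ± 0.24. Glyma.09G008400 (ACO) was at 8.87 ± 0.40, 8.14 ± 0.40 and 8.77 ± 0.40. A test of the change itself called 0 of 57378 models between EH10 and EH25 and 0 between EH10 and EH50 with limma, while 519 and 2029 models had an unadjusted p below 0.05. A limma-voom fit on recovered alignments called 0 and 0. The smallest adjusted p was 0.0711 for Glyma.13G224900 between EH10 and EH50, so no gene's change with stage passed the test.

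**Figure D4:**
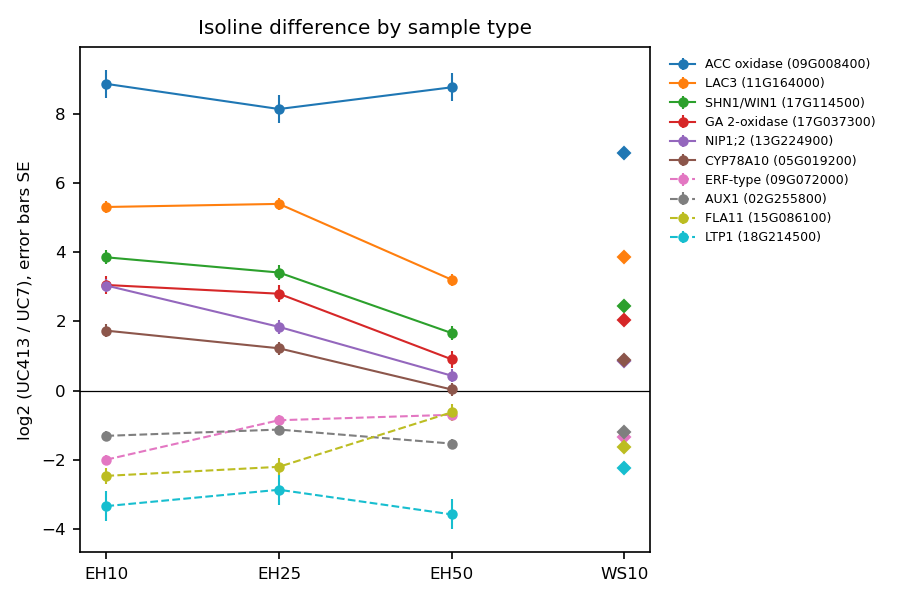
Log2 difference (UC413 over UC7) of 10 genes at EH10, EH25 and EH50, with SE bars from the fit of 2 libraries per isoline and stage, and in the single WS10 library of each isoline (diamonds, no error). The ACC oxidase Glyma.09G008400 lies at 8.87, 8.14 and 8.77 at the extended hilum stages, and NIP1;2 (Glyma.13G224900) goes from 3.04 to 0.43.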

How the data were processed

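RNA from the extended hilum was made into TruSeq libraries, and the authors aligned the reads with Bowtie to soybean gene models (Wm82.a2), allowing a few mismatches and many placements per read, so near-identical genes can share reads. The deposited values are RPKM, which the authors normalized to the alignments of each library, rDNA alignments included. They were divided here by median-of-ratios factors over the 12 extended hilum libraries, shifted by 0.25 and log2 transformed. The 57568 models that reached an RPKM of 1 in 2 or more libraries were tested in limma 3.58.1 (R 4.3.3, trended variance) with 6 groups of 2, and p was adjusted by Benjamini-Hochberg over all of them. A gene stands for its model with the highest mean. Alignments were recovered from RPKM and model length, with totals from 98.6 to 129 M at EH10, and floors cover counting error only. The ± values are SE from the limma fit, which rest on the spread between replicate libraries. The script was tested on simulated data.

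The 2 libraries of a group are described as independent replicates, and an exact permutation test of 2 against 2 could not go below p = 0.333. The members, gene lists and tests were chosen with earlier results of these data known. Genes named were the 15 highest and 15 lowest called genes, up to 4 called genes per direction in each list, the ACC oxidases, gibberellin 2-oxidases and flavonoid genes, and genes the study names for hormones, seed size or walls at this stage, and the text gives a part of these. Alternatives covered scaling, pseudocount, filter, model length, a replicate block, EH10 libraries alone, voom and leaving out each library. The choices to leave out later-stage libraries, and voom for the change with stage, were made after the data were seen. A result on 1 item withheld for evaluation is not reported here.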

Additional observations from a re-analysis of the deposited data

Results flagged for a closer look

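Glyma.17G046000, a SAUR gene of the small auxin-induced family, was higher in UC413 at EH10 with a log2 difference of 0.86, but lower at EH50 with -0.74 (adjusted p = 0.0352 and 0.0497, limma). The EH10 call was lost without each EH10 library in turn (adjusted p from 0.0898 to 0.198), and 6 other SAUR genes of 30 tested were lower in UC413 at EH10. The change between the stages was -1.60 and did not pass on its own (adjusted p = 0.286).

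In models outside the comparison, the rDNA models took 44.4% and 24.6% of the alignments in the UC7 EH10 libraries, above both UC413 libraries. Models with organelle-type hits took 0.0361% and 0.0382% in UC7, also above both UC413 libraries.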

How the results depend on the processing

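The counts of 2276 models on the UC413 side and 1205 on the UC7 side became 36668 and 193 on the RPKM as deposited, 5541 and 721 with equal sums, and 968 and 756 with 1 model per gene, where fewer models are tested. Leaving out 1 library gave 373 to 3133 models higher in UC413 and 101 to 2010 higher in UC7, with the lowest counts without UC413 replicate 2 at EH10 and the highest without UC7 replicate 1 at EH25, the latter chosen after the data were seen. When the fit held a replicate block, these counts were 3326 and 2796, with 2 ACC oxidases (Glyma.07G264200 and Glyma.17G009800) and 2 GH3 genes called lower against 0, and 0 ACC synthases against 2. Across the isolines at EH10, r between libraries was 0.939 and 0.943 for same-number pairs and 0.930 and 0.945 for different-number pairs. A separate same-number estimate, which is not this r between libraries, rose with stage from 0.172 (EH10) through 0.225 (EH25) to 0.464 (EH50). Each stage has 2 same-number pairs and no label ties the numbers to a shared plant or batch, so the block stays an alternative. The change from EH10 to EH25 called 0 to 2 models when 1 EH10 library was left out and 1 on the RPKM as deposited. That from EH10 to EH50 called 98 on the RPKM as deposited and 12 with a pseudocount of 1, and 0 without each EH10 library. The log2 difference of the flavanone 3-hydroxylase gene Glyma.02G048400, not called, turned to 2.73 under quantile normalization. On the RPKM as deposited, where all genes shift up, those of the AG genes Glyma.15G088600 and Glyma.13G223300 turned to 0.076 and 0.28. Except where shown, the cause was not tested. Genes with a few alignments in a library are limited by depth.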
